A study of Mus musculus with 12 samples.

Results

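Secreted plasma protein genes are the 36 clotting, complement, acute-phase and carrier protein genes of a list made for this description. All 36 were found among the 21887 protein-coding genes of the RefSeq table (GRCm38) on the 19 autosomes, X and Y. A peak was assigned to a gene if it shared at least 1 bp with the gene body extended by 1 kb at either end. The peaks are taken to mark R-loops, stretches of DNA whose one strand is paired with RNA while the partner strand is left unpaired. S9.6, an antibody against RNA-DNA hybrids, was used to pull such DNA down for sequencing. The series holds 12 libraries in 6 groups of 2: immunoprecipitate, immunoprecipitate treated with RNase H1, which degrades the RNA of a hybrid, and input DNA. The source was either HEPA1-6, a line of mouse hepatoma cells, or the liver of C57/Bl6 mice, all labelled WT and otherwise untreated. The age of the mice and whether a library came from 1 animal or culture are not given in the sources used here.

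The data were 1 peak list per source, named by the authors as a merged immunoprecipitate against an input, so no difference between the sources has a replicate check. The HEPA1-6 list held 28717 peaks and the liver list 14908, and the read depth behind both is unknown. The authors' score is a whole number of 10 or more with no stated scale. It is therefore given with its percentile, the percent of peaks in the same list that scored lower. Intervals below are 95% Wilson intervals over genes and cover counting error only. Markers were counted as genes with a peak, which is no measure of expression. In the liver list, peaks lay at 4 of 8 hepatocyte markers (Apoa2, Alb, Apoe and Fah), 4 of 4 dividing cell markers (Plk1, Mki67, Cdk1 and Top2a), 1 of 3 cholangiocyte markers (Sox9), 1 of 3 stellate cell markers (Dcn), 0 of 3 Kupffer cell and 0 of 3 endothelial markers. The HEPA1-6 list gave the same counts except for hepatocyte markers, where Fah had no peak (3 of 8). Of all protein-coding genes, 29.7% held a peak in the liver list and 42.0% in the HEPA1-6 list. These counts do not tell the tissue apart from the cell line, and the liver list is called liver-labelled.

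Hepatocytes make most of the protein of blood plasma. They transcribe these genes at high rates under liver-enriched transcription factors, and inflammation changes the output of several of them, the acute-phase genes. R-loops form behind RNA polymerase, above all where the non-template strand is rich in G, and are common at promoters with many CG dinucleotides and at transcript ends. Plasma protein genes are known as genes of tissue-restricted expression, most of which lack such promoters.

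Peaks lay at few of these genes. In HEPA1-6, 7 of the 36 (19.4%, interval 9.75 to 35.0%) held a peak: F2, F11, Serpinc1, Itih2, Cfb, Hpx and Rbp4. Over all protein-coding genes the share was 42.0%. In the liver-labelled list, 4 of the 36 (11.1%, 4.41 to 25.3%) held one, against 29.7% of all genes: Itih2, Cfb, Hpx and Rbp4. All 4 also held a HEPA1-6 peak, and the overall share of genes with a peak in both lists was 27.8%. A HEPA1-6 peak alone was found at 3 genes (8.33%), where 14.2% of all genes had one. A liver-labelled peak alone was found at 0 of 36, against 1.89% of all genes. A count of 0 allows a share of up to 8.33% taken as 3 of 36 genes, and up to 9.64% by the Wilson interval. The remaining 29 genes (80.6%) held no peak in either list, against 56.1% of all genes. The lists leave out whatever fell under the authors' threshold, so these genes lacked a called peak at this unknown depth.

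The 7 genes held 12 HEPA1-6 and 8 liver-labelled peaks, every one with an authors' strand. Scores ran from 15 to 102 in HEPA1-6 with a median of 31, and 9 of 12 lay above the list median of 21. In the liver-labelled list they ran from 16 to 49 with a median of 28.5, and 6 of 8 lay above the list median of 22. All 8 liver-labelled peaks overlapped a HEPA1-6 peak, whereas 4 of the 12 HEPA1-6 peaks overlapped a liver-labelled one. Over the whole lists, 75.9% of liver-labelled peaks overlapped a HEPA1-6 peak and 31.8% of HEPA1-6 peaks a liver-labelled one. In bases, peaks covered 4.62% of the summed gene bodies of the 36 in HEPA1-6, compared with 1.92% for liver-labelled peaks. Over all protein-coding genes, whose bodies may overlap, these shares were 4.65% and 1.55%. Fewer of the plasma protein genes thus held a peak, while the covered share of their bodies was close to that of all genes. Most of the covered bases belonged to Rbp4, Cfb and Hpx.

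**Figure D1:**
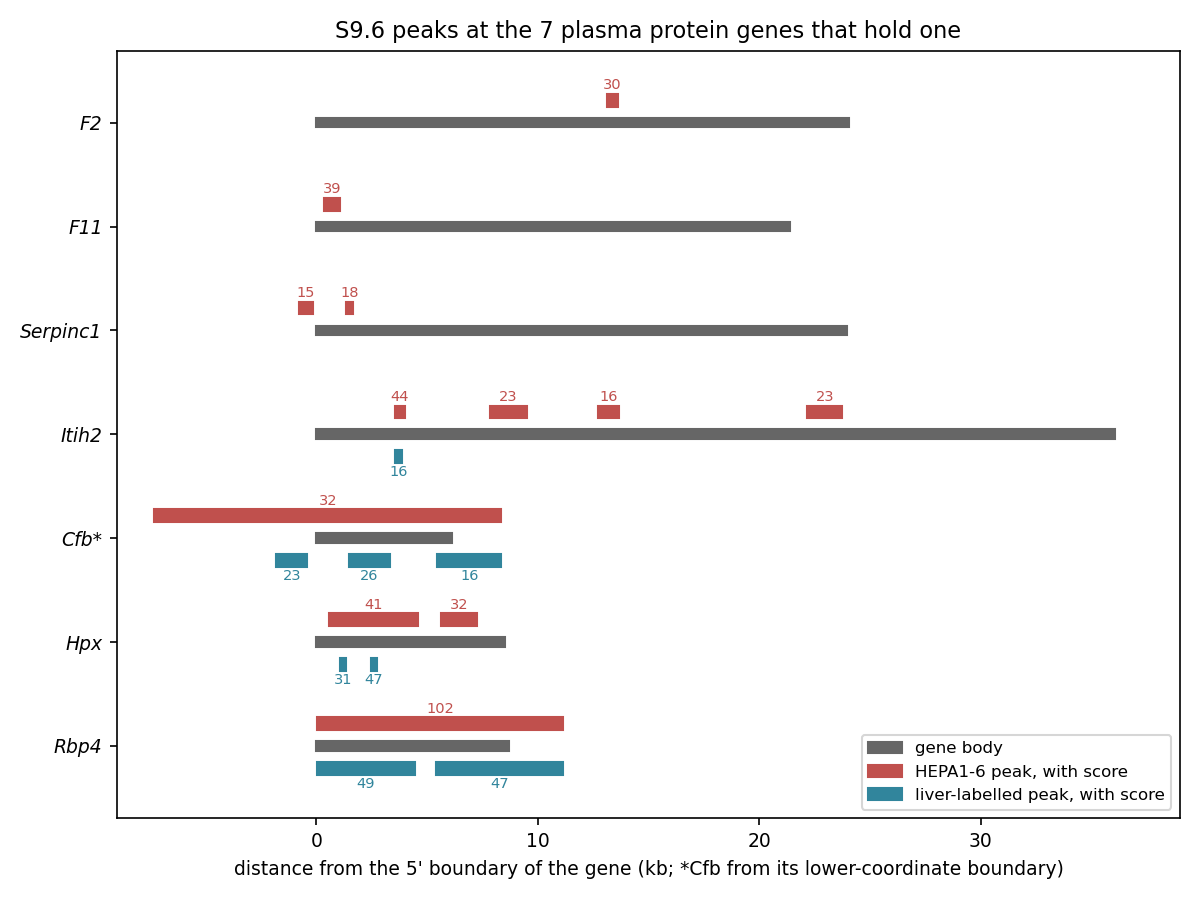
Peaks along the 7 plasma protein genes that hold one, in kb from the 5′ boundary in the direction of transcription (Cfb from its lower coordinate). Grey bars are gene bodies, red bars HEPA1-6 peaks and blue bars liver-labelled peaks, each with its authors' score. Rbp4 and Cfb are covered almost from end to end in HEPA1-6, while F2, F11 and Serpinc1 hold short peaks in HEPA1-6 alone.

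The 3 fibrinogen chains are made from neighbouring genes on chromosome 3, and thrombin turns their product into the fibrin mesh of a clot. None of Fga, Fgb and Fgg held a peak in either list, as was so for 56.1% of all protein-coding genes. The nearest HEPA1-6 peak lay 28587, 12351 and 47158 bp from them, respectively. It was the same peak for all 3, with a score of 17, over Plrg1, a splicing factor gene beside the cluster. The nearest liver-labelled peak was 334350 bp or more away. The Fga promoter is printed as an example without a peak. It is the 250 bases before the start site (RefSeq, GRCm38.p6, plus strand, chr3:83025903-83026152), with each CG dinucleotide in capitals here and in the promoters that follow.

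Fga: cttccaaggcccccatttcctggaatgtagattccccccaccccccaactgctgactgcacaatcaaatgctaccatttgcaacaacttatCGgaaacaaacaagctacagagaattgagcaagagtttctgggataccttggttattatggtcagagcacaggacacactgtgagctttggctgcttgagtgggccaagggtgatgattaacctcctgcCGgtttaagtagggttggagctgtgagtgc

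It holds 2 CG dinucleotides and 49.2% G and C.

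Of 6 clotting factor genes, 2 had HEPA1-6 peaks and 0 had liver-labelled peaks, against 42.0% and 29.7% of all protein-coding genes. F2 encodes prothrombin, the precursor of thrombin, and lies at chr2:91612397-91636457. Its HEPA1-6 peak spanned chr2:91622839-91623318, 13139 to 13618 bp inside the gene, with a score of 30 (percentile 72.8) on the strand of the gene. The nearest liver-labelled peak was 5530 bp from the gene, at Zfp408. F11 encodes factor XI of the intrinsic pathway, at chr8:45240659-45262055. Its HEPA1-6 peak, chr8:45260992-45261728, began 327 bp inside the 5′ boundary and scored 39 (percentile 83.9), also on the strand of the gene. The closest liver-labelled peak lay 78369 bp away at Fam149a. Both genes thus had a short HEPA1-6 peak within the gene, scored above the median of its list. Neither had a liver-labelled peak. Of all protein-coding genes, 14.2% held a HEPA1-6 peak alone, and the HEPA1-6 list is the longer one. The F11 promoter (minus strand, chr8:45262032-45262281) is shown because a peak starts just downstream of it.

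F11: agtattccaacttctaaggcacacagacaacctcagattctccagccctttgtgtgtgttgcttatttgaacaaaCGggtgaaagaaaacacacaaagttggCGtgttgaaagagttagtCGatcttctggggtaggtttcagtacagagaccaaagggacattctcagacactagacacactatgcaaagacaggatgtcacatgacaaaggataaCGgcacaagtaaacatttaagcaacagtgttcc

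It holds 4 CG dinucleotides and 42.8% G and C.

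F5, F7, F10 and F12 held no peak in either list. F5 encodes the cofactor of factor Xa and, with 68443 bp, is the longest of the 36 genes. Its nearest peak in both lists was 27070 bp away at Slc19a2, a thiamine transporter gene. F7 and F10, which encode factors VII and X, lie side by side on chromosome 8. Their nearest HEPA1-6 peaks were 64411 and 43544 bp away and the nearest liver-labelled ones 67159 and 46292 bp away, all at Pcid2. F12 encodes factor XII, which starts contact activation. Its nearest peaks lay at Grk6, 17578 bp (HEPA1-6) and 17611 bp (liver-labelled) away. In all 4 cases the nearest peaks of both lists lay at the same neighbouring gene.

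Plg, Kng1 and Hrg, the genes of plasminogen, kininogen and histidine-rich glycoprotein, held no peak, like 56.1% of all protein-coding genes. Plg, the precursor of the enzyme that dissolves fibrin, lay 320980 bp from the nearest peak of either list, at Igf2r, with scores of 95 and 55. Kng1 lay 25438 and 25880 bp from peaks at Eif4a2, a translation factor gene, which scored 673 (HEPA1-6) and 344 (liver-labelled). Hrg lay 92294 and 93474 bp from peaks at Tbccd1.

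Among 10 protease inhibitor genes, peaks lay at 2 in HEPA1-6 and at 1 in the liver-labelled list. The shares of all protein-coding genes were 42.0% and 29.7%. Serpinc1, at chr1:160978583-161002543, encodes antithrombin, the main inhibitor of thrombin and factor Xa. It had 2 HEPA1-6 peaks on its own strand and none in the liver-labelled list. The first, chr1:160977800-160978414, ended 169 bp before the 5′ boundary and scored 15 (percentile 18.6). The second, chr1:160979925-160980220, lay 1342 to 1637 bp inside the gene and scored 18 (percentile 36.2). Both scores were under the list median, and the higher of them was the lowest top score of the 7 genes. The first 82 of the 250 promoter bases below (plus strand, chr1:160978333-160978582) fall in the first peak.

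Serpinc1: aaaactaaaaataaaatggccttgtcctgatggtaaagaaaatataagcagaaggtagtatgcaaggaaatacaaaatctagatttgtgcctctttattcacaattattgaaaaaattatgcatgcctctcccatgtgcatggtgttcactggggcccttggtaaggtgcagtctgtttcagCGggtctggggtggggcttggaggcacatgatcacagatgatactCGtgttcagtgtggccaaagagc

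It holds 2 CG dinucleotides and 42.8% G and C.

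Itih2 encodes a heavy chain of the inter-alpha-trypsin inhibitors, proteins that are coupled to hyaluronan in the matrix, and lies at chr2:10094591-10130683. It held 4 HEPA1-6 peaks, all on the strand of the gene and inside its body, and 1 liver-labelled peak. The highest HEPA1-6 score was 44 (percentile 87.4), for chr2:10126663-10127148, which began 3535 bp from the 5′ boundary. The liver-labelled peak, chr2:10126806-10127148, ended at the same base and scored 16 (percentile 18.8). Of the other HEPA1-6 peaks 2 scored 23 and 1 scored 16. Peaks covered 13.1% of the gene in HEPA1-6 and 0.950% in the other list.

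Its relatives Itih1, Itih3 and Itih4, which lie in a cluster on chromosome 14, held no peak. The nearest HEPA1-6 peak was at Glt8d1, 67613, 87115 and 108916 bp from them, and the nearest liver-labelled peak at Gnl3, 69202, 88704 and 110505 bp away. Ambp encodes the precursor of bikunin, the light chain of the same inhibitors, and lay 59456 and 59919 bp from peaks at Col27a1. Serpina1a and Serpina1c encode alpha-1-antitrypsins, which inhibit neutrophil elastase. They were the farthest from a HEPA1-6 peak of all 36 genes, at 428337 and 469968 bp, and had no liver-labelled peak within 846248 bp. Serpind1, the heparin cofactor II gene, was 108859 and 283560 bp from a peak. Serpinf2, the gene of the plasmin inhibitor alpha-2-antiplasmin, was 20902 and 20037 bp from one. Serpina1a, Serpina1c, C4b, Saa1 and Orm1 have near-identical copies beside them. How reads that map to several copies were treated is not given in the sources used here, so a missing peak at these 5 says less than at the others. Sequence likeness was not measured, and Kng1 also has a related gene, Kng2, nearby.

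Of the 4 complement genes, Cfb alone held peaks, and it did so in both lists, as did 27.8% of all protein-coding genes. Cfb encodes factor B, the protease of the alternative pathway, at chr17:34856374-34862514, in a dense gene cluster. The HEPA1-6 peak, chr17:34849039-34864721, was 15683 bp wide, covered 100% of Cfb and touched Skiv2l, Nelfe and C2 as well. It scored 32 (percentile 76.3), and 39.2% of its bases lay in Cfb. The liver-labelled list had 4 separate intervals under this peak, of which 3 reached Cfb or its 1 kb flank. The middle one of these 3, chr17:34857859-34859686, lay wholly inside Cfb and scored 26 (percentile 62.6). The next, chr17:34861837-34864721, scored 16 (percentile 18.8) and ran from Cfb into C2, with 23.5% of its bases in Cfb. The third, chr17:34854571-34855966, scored 23 and touched Nelfe, reaching only the 1 kb flank of Cfb. The authors gave the plus strand to the HEPA1-6 peak and to the interval over Nelfe, and the minus strand to both intervals over Cfb. The wide HEPA1-6 peak cannot be assigned to 1 of the 4 genes it spans.

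C3, C4b and C9 held no peak. C3, on which all complement pathways converge, lay 6472 bp from a HEPA1-6 peak at Trip10 and Gpr108 and 3326 bp from a liver-labelled peak (score 19) outside protein-coding genes. It was the closest to a liver-labelled peak of the 32 genes without one. C4b, a component of the classical pathway, lay 71379 bp from peaks at Atf6b in both lists. C9, whose product forms the pore of the membrane attack complex, lay 28283 bp from a liver-labelled peak at Fyb and 208668 bp from a HEPA1-6 peak. The C3 promoter (minus strand, chr17:57228137-57228386) is shown as a second example without a peak.

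C3: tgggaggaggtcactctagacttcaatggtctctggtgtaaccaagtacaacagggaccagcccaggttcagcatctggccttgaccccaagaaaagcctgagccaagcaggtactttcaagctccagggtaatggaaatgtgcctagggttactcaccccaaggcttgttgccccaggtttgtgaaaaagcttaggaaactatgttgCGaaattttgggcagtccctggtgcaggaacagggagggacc

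It holds 1 CG dinucleotide and 52.0% G and C.

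The 5 genes of acute-phase proteins and fetuins held no peak in either list, like 56.1% of all protein-coding genes. Crp and Saa1, which encode C-reactive protein and a serum amyloid A, are the shortest of the 36, with 1911 and 2685 bp. Crp lay 186916 and 188971 bp from a peak. Saa1 lay 49423 bp from a HEPA1-6 peak at Saal1 and 52405 bp from a liver-labelled peak at Hps5 and Gtf2h1. Orm1, an alpha-1-acid glycoprotein gene, lay 13724 bp from a HEPA1-6 peak at its copy Orm2 (score 13), and 55702 bp from a liver-labelled peak at Akna. Ahsg and Fetub encode the fetuins, of which fetuin-A keeps calcium phosphate from precipitating. They lay 33237 and 59604 bp from a HEPA1-6 peak over Tbccd1 and Dnajb11, and 34417 and 60784 bp from a liver-labelled peak at Tbccd1. The Ahsg promoter (plus strand, chr16:22891765-22892014) is the third example without a peak.

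Ahsg: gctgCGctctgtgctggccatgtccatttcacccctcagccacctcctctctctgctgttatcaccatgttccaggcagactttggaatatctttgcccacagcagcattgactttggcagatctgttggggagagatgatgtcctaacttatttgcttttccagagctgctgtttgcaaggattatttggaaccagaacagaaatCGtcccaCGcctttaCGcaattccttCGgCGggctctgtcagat

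It holds 6 CG dinucleotides.

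Among the 5 carrier and adhesion genes, Hpx and Rbp4 held peaks in both lists, as did 27.8% of all protein-coding genes. Hpx encodes hemopexin, which carries free heme to the liver, and lies at chr7:105591611-105600116. It had 2 HEPA1-6 peaks, chr7:105595537-105599567 with a score of 41 (percentile 85.5) and chr7:105592881-105594480 with a score of 32 (percentile 76.3). Together they covered 66.2% of the gene. Its 2 liver-labelled peaks were short, chr7:105597384-105597670 (287 bp, score 47, percentile 89.9) and chr7:105598792-105599049 (258 bp, score 31, percentile 73.7), and covered 6.41%. Both lay inside the wider HEPA1-6 peak, and all 4 peaks had the strand of the gene. The wide HEPA1-6 peak began 549 bp from the 5′ boundary, downstream of the promoter printed here (minus strand, chr7:105600117-105600366).

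Hpx: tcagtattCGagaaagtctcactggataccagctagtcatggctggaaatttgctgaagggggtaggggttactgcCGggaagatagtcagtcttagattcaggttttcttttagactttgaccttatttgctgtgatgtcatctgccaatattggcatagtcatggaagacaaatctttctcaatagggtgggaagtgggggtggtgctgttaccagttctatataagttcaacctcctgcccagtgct

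It holds 2 CG dinucleotides and 44.8% G and C.

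Rbp4, which encodes the carrier of retinol in blood, had the highest scores of the 36 genes in both lists. It lies at chr19:38116620-38125321. In HEPA1-6, 1 peak (chr19:38114160-38125288, 11129 bp) scored 102 (percentile 97.6) and covered 99.6% of the gene. In the liver-labelled list, chr19:38114160-38119897 scored 47 (percentile 89.9) and chr19:38120888-38125288 scored 49 (percentile 90.7), and together they covered 88.2%. The outer edges were the same bases in both lists. The authors' strand differed: plus for the HEPA1-6 peak and minus, the strand of Rbp4, for both liver-labelled peaks. The HEPA1-6 peak and the first liver-labelled peak also touched the end of Ffar4, a plus-strand fatty acid receptor gene next to Rbp4.

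RefSeq gives Rbp4 windows at 2 start sites, and they differ in sequence. The second start site, at 38124811, lies inside the gene body, and its whole 300-base window fell in the HEPA1-6 peak and in the liver-labelled peak. That window had 72.0% G and C and 40 CG dinucleotides, the most of the 31 promoter windows of these genes. The first start site, at the 5′ boundary, had 40.7% and 5, and both lists' peaks ended 33 bp inside it. The 250 bases before the second start site (minus strand, chr19:38124812-38125061) and before the first (chr19:38125322-38125571) are set side by side to show the difference.

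Rbp4, second start site: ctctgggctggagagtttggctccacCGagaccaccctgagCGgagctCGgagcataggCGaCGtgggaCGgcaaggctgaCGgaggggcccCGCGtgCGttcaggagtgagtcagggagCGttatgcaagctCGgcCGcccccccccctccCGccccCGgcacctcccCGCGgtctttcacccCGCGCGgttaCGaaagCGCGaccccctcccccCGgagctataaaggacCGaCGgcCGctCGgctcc
Rbp4, first start site: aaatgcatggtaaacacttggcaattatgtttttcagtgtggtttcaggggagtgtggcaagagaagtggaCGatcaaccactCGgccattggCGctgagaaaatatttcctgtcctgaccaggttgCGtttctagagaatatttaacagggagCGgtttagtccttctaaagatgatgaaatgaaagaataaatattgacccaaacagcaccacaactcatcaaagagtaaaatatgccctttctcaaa

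Over these 250 bases the second start site has 28 CG dinucleotides and the first has 5. All 250 lay in peaks of both lists for the second, and 0 for the first.

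Hp, Ttr and Vtn held no peak. Hp encodes haptoglobin, which binds free hemoglobin, and lay 10603 and 11762 bp from peaks at Dhx38. Ttr encodes transthyretin, the thyroxine carrier that travels with the Rbp4 protein. It lay 38594 bp from a HEPA1-6 peak at B4galt6 and 604749 bp from a liver-labelled peak. Vtn encodes vitronectin, an adhesion protein, and was the closest to a HEPA1-6 peak of the 29 genes without one: 1624 bp from a peak (score 17) at Sebox. Its nearest liver-labelled peak was 9105 bp away at Tmem199 and Poldip2.

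Over the 29 genes without a HEPA1-6 peak, the distance to the nearest one ranged from 1624 to 469968 bp with a median of 49423 bp. Over all protein-coding genes without a HEPA1-6 peak the median was 85544 bp. Over the 32 without a liver-labelled peak, it ranged from 3326 to 887579 bp with a median of 63971 bp, against 94542 bp for all such genes. The genes without a peak therefore lay no farther from peaks than other genes without one, as judged by the medians.

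**Figure D2:**
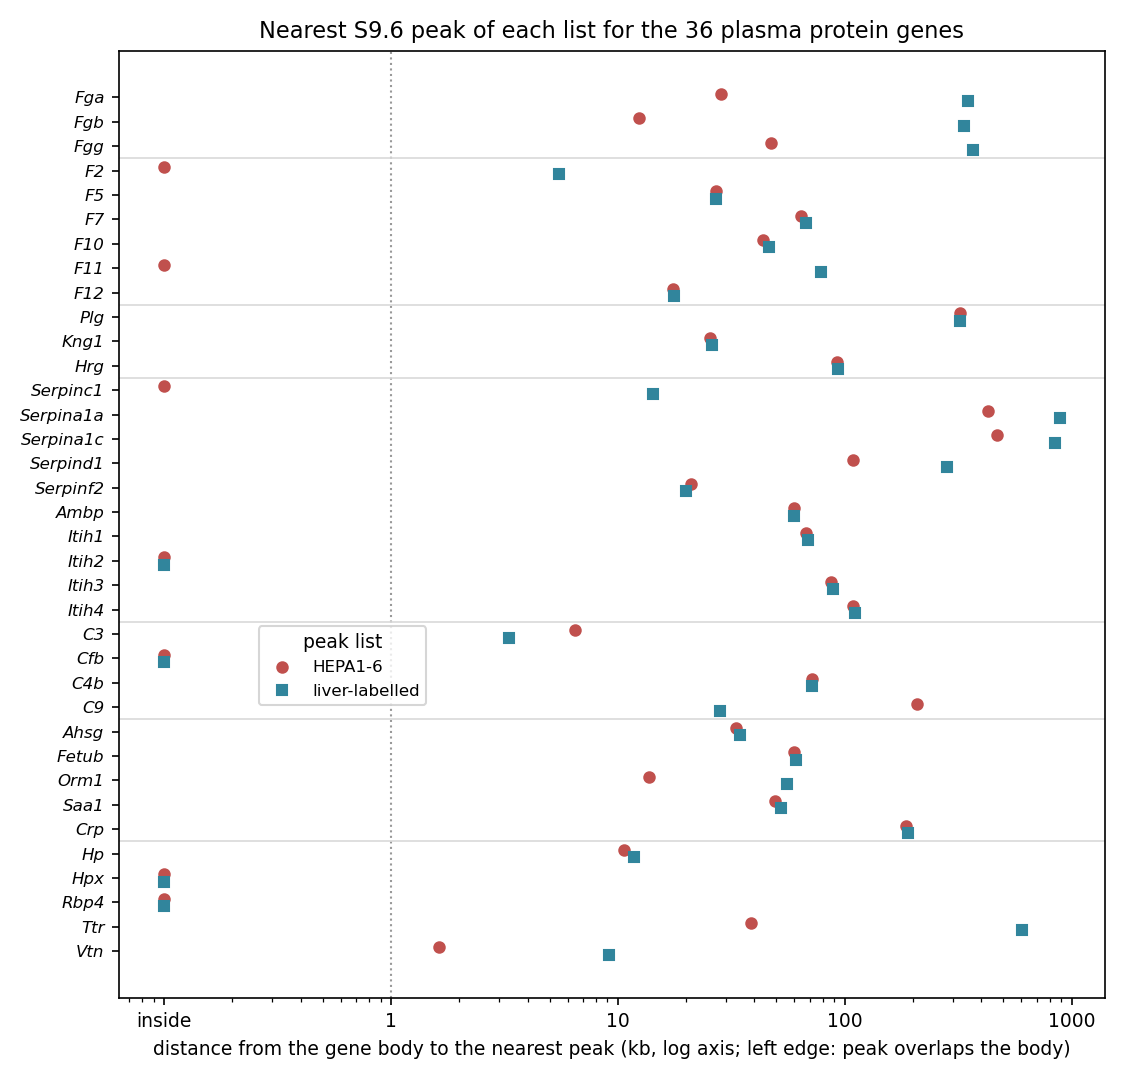
Distance in kb (log axis) from each of the 36 gene bodies to the nearest HEPA1-6 peak (red circles) and liver-labelled peak (blue squares), with genes grouped by role. Points at the left edge are genes whose body overlaps a peak, and the dotted line marks the 1 kb flank. For most genes without a peak both lists give nearly the same distance, and the fibrinogen genes, Ttr and C9 are among those where the lists differ.

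Neighbouring genes held peaks more often than the plasma protein genes did. Within 50 kb of the 36 lay 76 protein-coding genes that belong to no plasma protein list used here. Peaks lay at 48 of them (63.2%) in HEPA1-6 and at 37 (48.7%) in the liver-labelled list, compared with 42.0% and 29.7% of all genes. Of the 29 plasma protein genes without any peak, 17 had within this window a gene outside the 36 with a HEPA1-6 peak, and 14 had one with a liver-labelled peak. Examples are Plrg1 beside the fibrinogen genes, Eif4a2 beside Kng1 and Dhx38 beside Hp. The same count was not made for all genes without a peak, so 17 and 14 are not shown to be unusual. The neighbours overlap one another and share regions, so they are no independent draws. The 76 had a median length of 18659 bp, against 10456 bp for the 36. Skiv2l, Nelfe and Ffar4 are among the neighbours with a HEPA1-6 peak and are touched by the wide peaks at Cfb and Rbp4.

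Peaks at these genes were also placed along the gene. A strand was given by the promoter table for 29 of the 36. Plg, Kng1, Hp, Ttr, Cfb, C4b and Orm1 have no entry there. Of these 29, 4 held a HEPA1-6 peak within 1 kb of the 5′ boundary (F11, Serpinc1, Hpx and Rbp4), against 24.5% of all genes with a strand. At the 3′ boundary 1 did (Rbp4), where the share of all genes was 23.8%. In the liver-labelled list Rbp4 alone had a peak at the 5′ boundary and at the 3′ boundary, with background shares of 16.7% and 11.8%. Of the 11 HEPA1-6 peaks at these genes, 10 had the strand of the gene and 1, at Rbp4, the opposite one. All 5 liver-labelled peaks had the strand of the gene. The share of same-strand peaks over all protein-coding genes was not counted, so these strand counts are not shown to be particular to these genes. How the authors gave strands to peaks is not given in the sources used here.

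Gene length was compared because a longer gene can hold a peak more easily. The 36 genes had a median length of 10456 bp, shorter than the 17169 bp of all protein-coding genes. The 7 with a peak had a median of 21397 bp and the 29 without one 10325 bp. Among genes under 5 kb, 22.5% of all and 0 of 5 plasma protein genes held a HEPA1-6 peak. For 5 to 10 kb the figures were 43.3% and 3 of 9, for 10 to 20 kb 49.0% and 0 of 12, for 20 to 50 kb 49.98% and 4 of 8, and over 50 kb 47.3% and 0 of 2. In the liver-labelled list the shares of all genes in these classes were 16.5%, 30.8%, 33.2%, 34.0% and 35.2%, and 0, 3, 0, 1 and 0 plasma protein genes held a peak. The 12 genes of 10 to 20 kb, among them C4b, Serpind1 and the chromosome 14 Itih genes, had 0 peaks in either list.

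Promoter windows of 300 bases (250 before and 50 after a start site) were poorer in CG than those of most genes. By the first window listed for each gene, the 29 genes had a median of 4 CG dinucleotides (range 1 to 9), against 13 for 17492 protein-coding genes. Median GC content was 49.7% against 56.3%. Genes with a HEPA1-6 peak had a median of 22 CG dinucleotides over all protein-coding genes, and those without one 6. The sequence GTTAAT, part of the motif of the liver factor HNF1, occurred on either strand in 7 of the 29 windows (24.1%) and in 6.29% of all. TATAAA, the core of the TATA box, occurred on either strand in 24.1% and 13.3%. A match is a run of letters and not a shown binding site.

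Genes were then grouped by the CG count of their promoter window. By the densest window of each gene, 17 of the 29 had 0 to 4 CG dinucleotides. Of these, 4 (F2, Serpinc1, Itih2 and Hpx) held a HEPA1-6 peak and 2 (Itih2 and Hpx) a liver-labelled one, where the shares of all genes in this class were 8.77% and 6.05%. With 5 to 9 CG dinucleotides, 1 of 10 (F11) held a HEPA1-6 peak and 0 of 10 a liver-labelled one, against 24.4% and 16.6%. Fetub, the only one with 10 to 19, held none, against 50.8% and 34.1%. Rbp4, the only one with 20 or more, held a peak in both lists, in a class where 67.75% and 48.7% of all genes did. By the first listed window, which puts Rbp4 at 5, the lowest class had the same counts of 4 and 2 of 17, with background shares of 10.8% and 7.51%. Among genes of 5 to 50 kb, by the densest window, 4 of 13 and 2 of 13 in that class held a peak, against 10.99% and 6.43%. These counts are small, and the classes were set after the peaks at the genes were known.

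**Figure D3:**
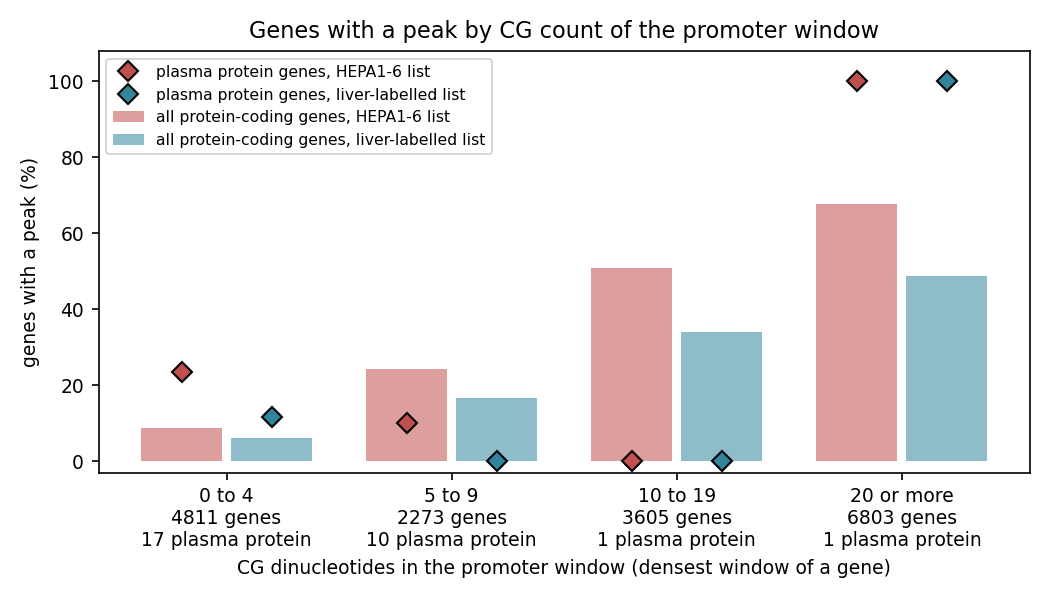
Percent of genes with a peak by the number of CG dinucleotides in the densest 300-base promoter window of a gene. Bars are all protein-coding genes with a window and diamonds the plasma protein genes among them, with the HEPA1-6 list in red and the liver-labelled list in blue. The HEPA1-6 bars climb from 8.77% to 67.75% and the liver-labelled bars from 6.05% to 48.7%, and 27 of the 29 plasma protein genes stand in the classes below 10.

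GC skew, the excess of G over C in the direction of transcription divided by their sum, had a median of −0.042 over the 29 first windows and of 0.007 over all genes. It was above 0 at 4 of the 6 genes with a peak and a window (Serpinc1, F11, Hpx and Rbp4) and below 0 at F2 (−0.061) and Itih2 (−0.244). At genes without a peak it was above 0 in 6 of 23, and over all protein-coding genes in 51.4%. Among genes with a peak, the 4 with skew above 0 are the 4 with a HEPA1-6 peak within 1 kb of the 5′ boundary. Their first windows lay mostly outside these peaks, with 82 bases inside at Serpinc1, 17 at Rbp4 and 0 at F11 and Hpx. Of all 31 windows, 3 had bases in a HEPA1-6 peak. Over all protein-coding genes, the median skew was 0.005 with a HEPA1-6 peak and 0.01 without one. For the liver-labelled list it was 0.006 and 0.008. A link between skew and peaks was not tested. Hpx had the highest skew of the 31 windows, 0.183, followed by Serpinc1 with 0.177. At Rbp4 the sign depended on the start site, with 0.066 at the first and −0.083 at the second. The first windows of the 6 genes with a peak had 40.7 to 49.0% G and C, and those of the 23 without one 36.7 to 57.7%.

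**Figure D4:**
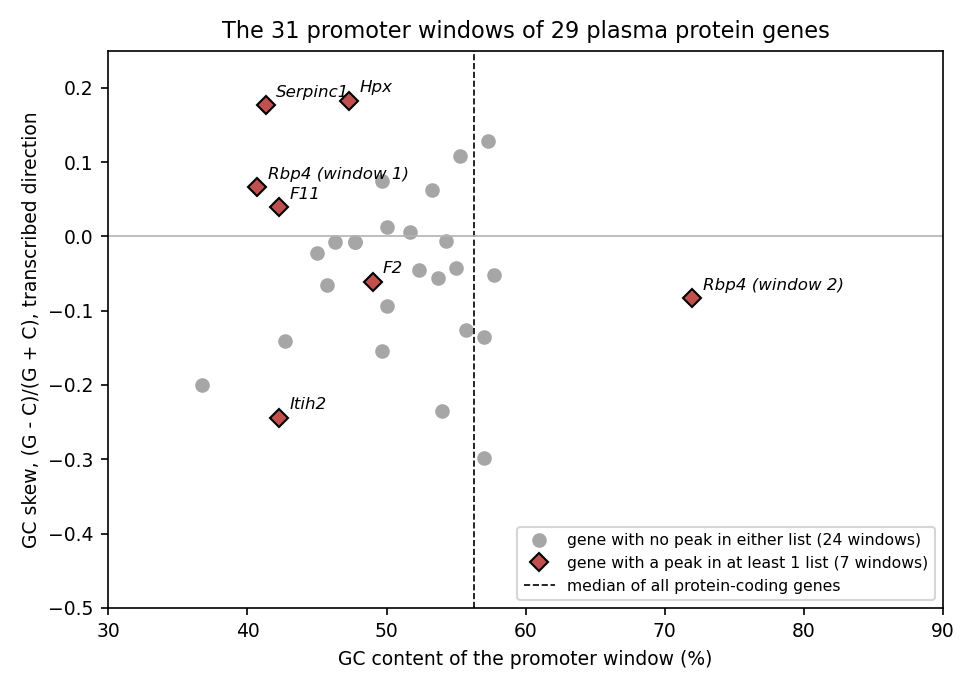
GC content in percent against GC skew for the 31 RefSeq promoter windows of 29 plasma protein genes. Red diamonds are windows of genes with a peak in at least 1 list and grey circles windows of genes with none, and the dashed line is the median GC content of all protein-coding genes (56.3%). Serpinc1, Hpx, F11 and the first Rbp4 window combine low GC content with positive skew, and the second Rbp4 window lies apart at 72.0%.

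Other genes of plasma proteins gave like counts. Of 72 further genes, mostly clotting, inhibitor, complement, acute-phase and carrier genes, 71 were found in the gene table. Hpn, counted among them, encodes a membrane protease. Peaks lay at 16 of the 71 (22.5%, interval 14.4 to 33.5%) in HEPA1-6, against 42.0% of all protein-coding genes. In the liver-labelled list they lay at 10 (14.1%, 7.83 to 24.0%), against 29.7% of all protein-coding genes. The genes with peaks in both (11.3%, against 27.8% of all genes) were Masp2, Hgfac, Alb, Afp, Hpn, Agt, Trf and C2. C2 held 1 peak in each list, and these are peaks already counted at Cfb. Agt, the gene of angiotensinogen, had 1 HEPA1-6 peak (score 113, percentile 98.0) and 2 liver-labelled peaks with a top score of 65 (percentile 95.1). That was the highest liver-labelled score among these genes. Alb had the highest HEPA1-6 score, 670 (percentile 99.9), with 54 (percentile 92.6) in the liver-labelled list. Masp2, a protease of the lectin pathway, had top scores of 74 and 40. Some of its peaks also touched Srm (both lists) or Tardbp (HEPA1-6). Whether the top-scoring peaks are among these was not examined. C6 (score 17) and Mug1 (score 22) held a liver-labelled peak alone (2.82%, against 1.89% of all genes). Lbp, Cp, Cfi, Orm2, C1ra, C1s1, Igfals and Lrg1 held a HEPA1-6 peak alone, with top scores from 13 to 37. They make up 11.3% of the 71, against 14.2% of all genes. The Igfals peak also touched Nubp2.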

How the data were processed

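Per the peak names, each deposited list comes from a merged S9.6 immunoprecipitate set against an input. Per the submitters' processing notes, CASAVA 1.8.2, cutadapt, Bowtie2, bedtools, SAMtools and MACS2 were used with build mm10. Thresholds, the libraries merged and the way strands were given are not given in the sources used here. The authors' deposited score, 1 whole number per peak, has no stated scale and was used within its own list only. RNase H1 treated and single libraries were not analysed here, so the loss of a peak on RNase H1 treatment was not examined.

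Peaks were set against RefSeq gene bodies (GRCm38.p6, the same coordinates as mm10) with pandas 2.3.3 and numpy 2.4.6, and Wilson intervals came from scipy 1.17.1. Coordinates are 1-based. Promoter windows are from RefSeq (29 of 36 genes matched). With 1 list per source no test was made. The overlap code was tested on simulated data, where 100% of 200 planted cases came out correctly.

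The members and gene lists were chosen with earlier results of these data known. All 36 genes are named, with coordinates for each that holds a peak. Of other plasma protein genes, those with a liver-labelled peak are named (up to 10, by score). The genes with a HEPA1-6 peak only, the 50 kb window for neighbours, the CG classes and the choice of printed promoters were chosen after values were seen. Alternatives varied the flank, the overlap, the score threshold, the strand and multi-gene peaks.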

Additional observations from a re-analysis of the deposited data

How the results depend on the processing

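There were 68 alternatives for 15 results. Of these, 49 left a count within 1.5 times its value, or a percent of all genes within its interval, and 19 moved it. Most that moved were percents of all genes. The tally is no measure of stability, because some alternatives could not change a count at the 36. One kept stranded peaks only, and every peak at the 36 has a strand. Cutting the HEPA1-6 list from 28717 to 14908 peaks is nearly the same filter as its higher-scoring 50%. Without a flank, with peak midpoints, with stranded peaks only and with the HEPA1-6 list cut to the length of the liver-labelled list, the 36 genes gave 6 or 7 with a HEPA1-6 peak and 4 with a liver-labelled one. The higher-scoring 50% of each list gave 6 and 3, losing Serpinc1 in HEPA1-6 and Itih2 in the liver-labelled list. Leaving out the 5 genes with near-identical copies, chosen after seeing the data, left 7 and 4 of 31. None of these 5 held a peak, so this alternative could not change the counts. A flank of 5 kb gave 8 and 5, adding Vtn and C3, and so 1 gene with a liver-labelled peak alone. Peaks that touch no other protein-coding gene gave 5 liver-labelled peaks at these genes in place of 8, and 2 genes with a peak in both lists in place of 4. They also gave 2 genes with a liver-labelled peak alone, because the wide HEPA1-6 peaks at Rbp4 and Cfb drop out. Within 2 kb of the boundaries, 2 genes held a HEPA1-6 peak at the 3′ boundary and 2 a liver-labelled peak at the 5′ boundary, Hpx being the added gene in both. With an overlap of 50% of both peaks, 2 HEPA1-6 and 2 liver-labelled peaks were shared. In every alternative the share of the 36 with a peak was below that of all protein-coding genes.

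No paired analysis was possible because replicate numbers exist for libraries, whereas each source has 1 merged peak list. For the same reason no replicate was left out. The unknown depth limits each statement on a gene without a peak.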

Other observations

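Edges of peaks coincided between the lists. Of the 8 liver-labelled peaks at plasma protein genes, 4 began or ended at the same base as the HEPA1-6 peak they overlapped: both at Rbp4, 1 at Itih2 and 1 at Cfb. Over the whole liver-labelled list this held for 5273 of 11310 peaks that overlapped a HEPA1-6 peak (46.6%). The plasma protein genes are thus near the share of the list, and the cause was not tested.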
